A study of Mus musculus with 8 samples.

Results

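Box C/D small nucleolar RNAs were measured by RNA-seq in the livers of C57BL/6 mice fed a control diet or a high-fat diet. Members were the rows of the deposited count table with the gene type snoRNA and a name starting with Snord. There were 80 such rows among 28073 rows of the table and 376 rows of type snoRNA, and 62 of them had a count in at least 1 of the 8 libraries. Well measured members, taken as those with a mean of at least 20 counts over the 8 libraries, numbered 8. Each diet group held 4 mice, called biological replicates by the submitters, all of 21 to 22 weeks of age, with no transgene, drug or other treatment in the labels. Neither the make-up of the diets nor the weeks spent on them is given in the sources used here. Total RNA from flash-frozen liver was made into stranded total RNA libraries, which hold between 26643020 and 30013106 counts.

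Box C/D snoRNAs are short nuclear RNAs that carry box C near the 5′ end and box D near the 3′ end. Both boxes bind a protein core with the methyltransferase fibrillarin, and the RNA pairs with ribosomal RNA to direct its 2′-O-methylation. A few members, among them U3, U8, U13, U14 and U22, act in the cleavage and folding of ribosomal RNA precursors. Most vertebrate members lie in introns of host genes, often genes for ribosomal proteins or translation factors, and are trimmed out of the spliced intron. U8 and U13 are transcribed from promoters of their own.

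Sequences of members on which the results turn are shown with the boxes marked, because box C and box D define the class. Lengths are set against the counts below, as a description. Letters are from the GENCODE M21 transcripts, 5′ to 3′, as DNA. Capitals mark the leftmost TGATGA, the core of box C, and the rightmost CTGA, box D. Snord118, the U8 RNA, lies at chr11:69073427-69073561 of mm10, plus strand. Snord17 lies at chr2:144265979-144266216, minus strand, and Snord22, the U22 RNA, at chr19:8725866-8725991, plus strand. The pair Snord14c and Snord14d are copies of U14 at chr9:40803583-40803668 and chr9:40803995-40804080, plus strand.
Snord118: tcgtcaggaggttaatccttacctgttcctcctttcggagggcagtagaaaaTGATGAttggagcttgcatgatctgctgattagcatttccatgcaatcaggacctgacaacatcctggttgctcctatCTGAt
Snord17: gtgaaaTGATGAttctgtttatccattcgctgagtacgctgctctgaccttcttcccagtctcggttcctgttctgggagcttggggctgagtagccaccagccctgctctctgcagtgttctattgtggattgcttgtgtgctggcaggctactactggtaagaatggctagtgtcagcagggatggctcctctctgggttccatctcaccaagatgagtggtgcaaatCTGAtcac
Snord22: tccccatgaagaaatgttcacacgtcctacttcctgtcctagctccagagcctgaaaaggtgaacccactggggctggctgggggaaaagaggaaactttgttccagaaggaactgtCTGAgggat
Snord14c: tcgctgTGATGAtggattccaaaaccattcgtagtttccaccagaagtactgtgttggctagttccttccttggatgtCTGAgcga
Snord14d: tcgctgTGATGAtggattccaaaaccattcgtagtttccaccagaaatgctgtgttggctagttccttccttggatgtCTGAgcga

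All 80 positions of the deposited table were identical to those of GENCODE M21, and all 80 sequences had the length of their row. Searched on the RNA strand alone, CTGA was present in 80 members, and TGATGA with a CTGA downstream of it in 56, or 70.0%. The same order was found in none of the 39 Snora rows, the H/ACA class, and in 0.525% of the leading 80 bases of 140371 GENCODE transcripts. Snord22 has no TGATGA, and its CTGA begins at base 118 of 126; this says only that these letters are not in the annotated span. In Snord118 the box C letters begin at base 53, behind a longer 5′ stretch than in Snord17, where they begin at base 7.

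Of the 80 members, 77 lay inside a gene on the same strand, taken here as the host, and these fell into 53 hosts. Hosts were annotated as protein-coding for 60 members, 21 of which lay in genes for ribosomal proteins, and as non-coding for 17. By the GENCODE M21 transcripts, 37 members were intronic in every host transcript, 36 were inside an exon of some transcript, such as one with a kept intron, and 4 were partly exonic. The other 3, Snord118, Snord13 and Snord104, had no containing gene in the table. Snord118 lay 134 bases downstream of Tmem107, a ciliary membrane protein gene on the same strand.

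Counts were concentrated in a few members. Snord17 alone held 55.9% of all Snord counts, and Snord17, Snord15b and Snord22 together held 88.5%. The 8 well measured members held 97.0%; 22 of the 62 detected members had a mean of 1 to 10 counts and 27 a mean under 1. Just inside the limit of 20 was Snord49b with a mean of 21.4 counts, and just outside was Snord118 with 18.9. On the scale of CPM per kilobase of annotated length (CPM being the count scaled to library size), the order of mean levels was Snord17 with 440, Snord22 with 228, Snord15b with 221, Snord104 with 62.8, Snord15a with 55.9 and Snord13 with 16.3. Snord22 and Snord15b are not separated by this: their control libraries overlapped in CPM, at 30.9 to 44.9 and 29.5 to 43.9.

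Longer members were counted more. The 5 members of at least 120 bases (Snord17, Snord15a, Snord15b, Snord118 and Snord22) all had a mean of at least 10 counts, against 8 of the 75 shorter ones. The median annotated length was 118 bases in the well measured members, 80 bases in the other detected members and 71 bases in the 18 without a count. Over the 62 detected members Spearman's rho between length and mean count was 0.43, as a description, since all members share the same 8 libraries. Snord104, of 70 bases with a mean of 122 counts, stood apart from the other short members. The host's own mean count tracked less with that of the member (rho 0.24 over 59 members with a host). Hosts of the 18 members without a count had mean counts between 4.75 and 5663. A count of 0 in all 8 libraries allows a level of up to 0.0134 CPM (3 counts over the summed library totals), for counting error only.

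**Figure D1:**
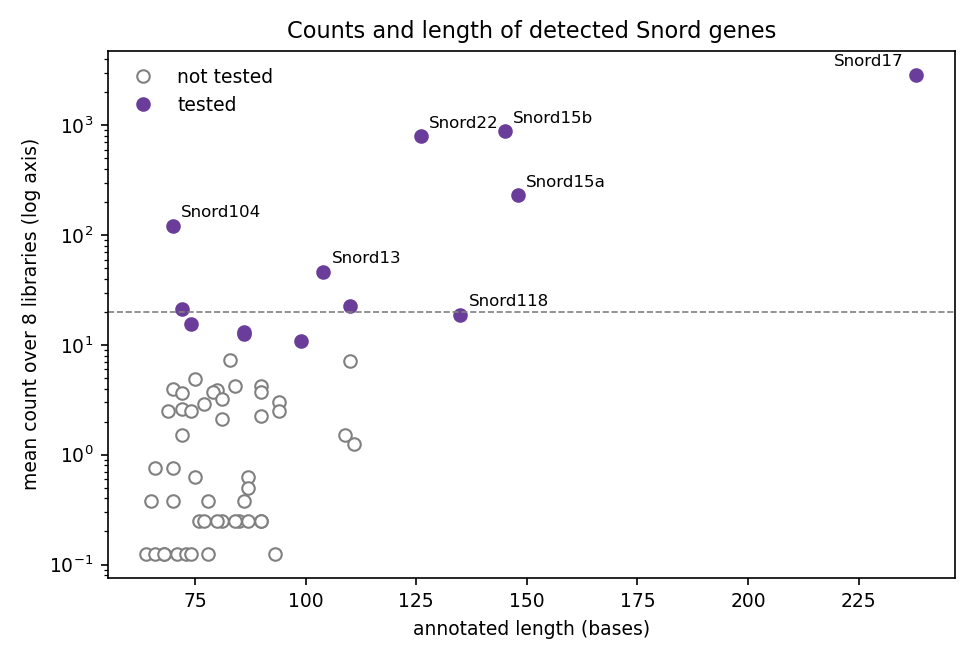
Annotated length in bases (horizontal) against the mean count over 8 libraries (vertical, log axis) of the 62 Snord members with a count; filled points are the 13 members tested and the dashed line is a mean of 20 counts. The 5 members of at least 120 bases lie at means from 18.9 to 2894 counts, while most shorter members lie under 10.

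Some rows of the table overlap each other. Snord80, inside an exon of some Gas5 transcript, stands in the table as a row of 81 bases and as a row of 77 bases inside it. The longer row held 17 counts over the 8 libraries and the shorter row 2. The U3 RNA is outside the rule, since its rows are named Rnu3a; these rows differ by 1 base in length and held 8667 and 8666 counts, so a read could be counted in both. Rows named Snord3a, Snord115 or Snord116 were not analysed here. Snord110, from Nop56, had a mean of 0.125 counts.

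The question put to these members was whether their levels differ between the diets. The summed CPM of all Snord members was 275, 205, 195 and 242 in control replicates 1 to 4 and 173, 146, 112 and 147 in high-fat replicates 1 to 4. Every high-fat library lay below every control library in this sum. Its mean was 229 ± 36.7 CPM on the control diet and 144 ± 24.8 CPM on the high-fat diet (SD, n = 4 per group), given with no test because it is a sum over the members. As a share of all counts the sum was 0.0222% ± 0.00345 on the control diet and 0.0149% ± 0.00232 on the high-fat diet (SD, n = 4). In bulk tissue, fewer cells of a type and less RNA per cell cannot be told apart.

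Of the 62 detected members, 13 passed the filter on low counts and were tested with edgeR's quasi-likelihood test over 14088 genes. Of these 13, 3 were called lower on the high-fat diet at a Benjamini-Hochberg adjusted p of 0.05, namely Snord118, Snord22 and Snord17. None was called higher, also not by DESeq2 or limma-voom. At the same adjusted limit 9.61% of all tested genes were called, 5.86% lower and 3.75% higher. An unadjusted edgeR p under 0.05 was found for 7 of the 13, a limit at which the share of all tested genes is not given. The estimate was below 0 for 12 of the 13 members, with a median log2 fold change of -0.68 (10 of 13 and -0.24 when scaled to the summed snoRNA counts), against 48.9% of all tested genes and a median of 0.0069. The same 3 members were those whose high-fat libraries all lay under the control libraries in CPM, a pattern shown by 9.97% of all tested genes.

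**Figure D2:**
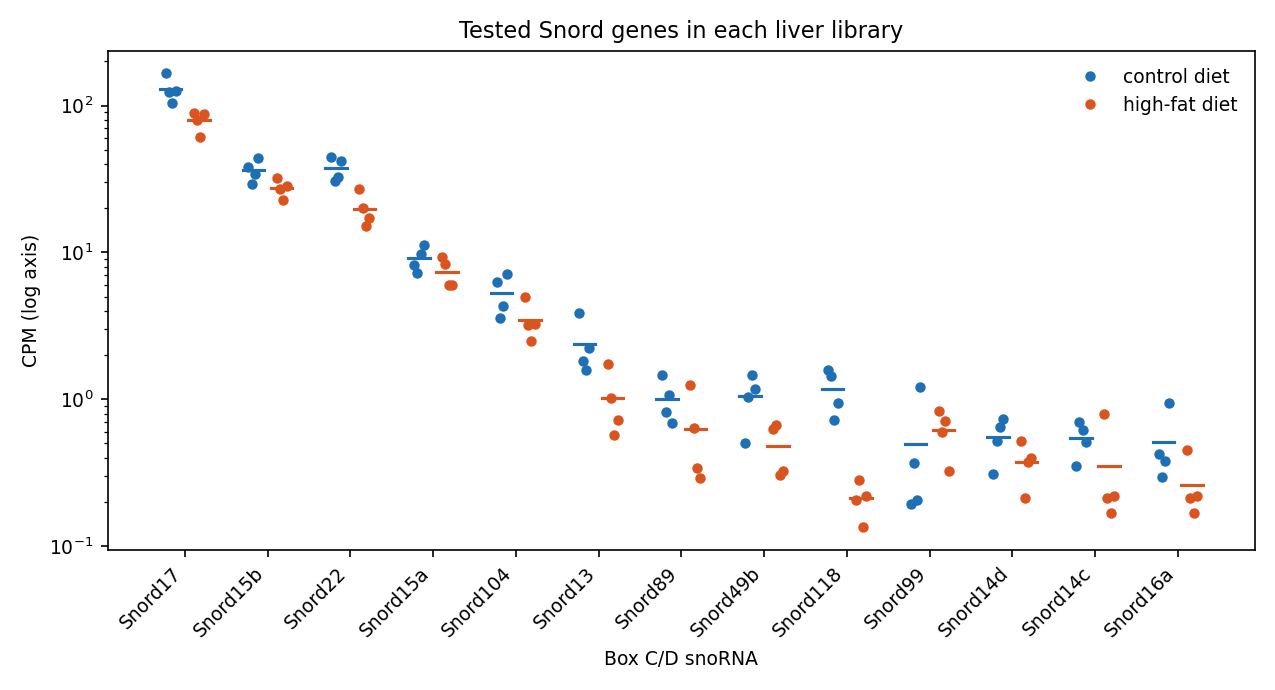
CPM (vertical, log axis) of the 13 tested Snord members in each library; points are libraries, blue for the control diet and orange for the high-fat diet, and bars are group means. The groups do not overlap for Snord17, Snord22 and Snord118, and the lowest levels rest on few counts.

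Among the members that act in ribosomal RNA processing, Snord118 showed the largest difference of all 13 tested members. U8, its product, is needed for maturation of 5.8S and 28S ribosomal RNA, as established in Xenopus oocytes. Control replicates 1 to 4 had 41, 39, 21 and 26 counts, and high-fat replicates 1 to 4 had 6, 8, 4 and 6. No high-fat library came near the control libraries, although the counts are small. In CPM the mean fell from 1.18 ± 0.409 to 0.211 ± 0.0606 (SD, n = 4 each). The difference was -2.45 ± 0.35 on the log2 scale (SE; edgeR adjusted p = 0.00483). It was called with any 1 library left out (log2 fold change from -2.63 to -2.28). Every one of the 16 alternatives in which it was tested called it, with adjusted p from 3.43e-06 to 0.0242; the filter of 1 CPM in 4 libraries removed it. A run of 50 bases of Snord118 also occurs in the row Gm24208 on chromosome 12, which had 0 counts in all libraries, so reads within that run could come from either copy.

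Snord22 comes from Snhg1, a non-coding host gene whose introns hold several box C/D snoRNAs. U22 is needed for maturation of 18S ribosomal RNA, as shown in Xenopus oocytes. Its counts were 1158, 834, 956 and 1139 in control replicates 1 to 4 and 778, 569, 450 and 472 in high-fat replicates 1 to 4. The groups did not overlap, and high-fat replicate 1 lay closest to the controls. The mean fell from 37.5 ± 6.80 to 19.9 ± 5.12 CPM (SD, n = 4), or by -0.92 ± 0.18 in log2 terms (SE; edgeR adjusted p = 0.0153). With any 1 library left out it was called, with log2 fold changes from -1.10 to -0.81.

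Snord13 is the U13 RNA, which base-pairs with 18S ribosomal RNA and serves its acetylation in human cells. It had 100, 49, 46 and 61 counts in control replicates 1 to 4 and 50, 29, 17 and 20 in high-fat replicates 1 to 4, and the groups overlapped. It was not called, at -1.22 ± 0.39 on the log2 scale (SE; edgeR adjusted p = 0.0839). It passed with DESeq2 (adjusted p = 0.0240), without the low-count filter (edgeR adjusted p = 0.0473) and without high-fat replicate 1 (log2 fold change -1.60, edgeR adjusted p = 0.0409), within adjusted p from 0.0240 to 0.349 over its alternatives.

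The U14 copies in Hspa8, the constitutive HSC70 chaperone gene, were counted at low levels. Each lies inside an exon of some Hspa8 transcript. Snord14d had 8, 14, 19 and 20 counts on the control diet and 15, 6, 11 and 11 on the high-fat diet, and Snord14c had 9, 19, 18 and 14 against 23, 6, 5 and 6. Both overlapped between diets, with log2 fold changes of -0.56 ± 0.35 and -0.64 ± 0.50 (SE; edgeR adjusted p = 0.368 and 0.472). Without high-fat replicate 1, its highest library, Snord14c stood at -1.43 ± 0.36 (SE; edgeR adjusted p = 0.0508, with adjusted p up to 0.715 over its alternatives). Snord14c and Snord14d were identical in 84 of 86 aligned bases, or 97.7%, but shared no run of 50 bases. Reads that miss the differing bases could be assigned to either. Snord14e, the third copy in Hspa8, had a mean of 3.75 counts and was not tested.

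Snord17 was the most abundant member and comes from an intron of Snx5, which encodes a sorting nexin of the endosome. Its counts were 4264, 3337, 3049 and 3453 in control replicates 1 to 4 and 2579, 2264, 1791 and 2413 in high-fat replicates 1 to 4. Every high-fat library was below every control library. In CPM it fell from 130 ± 25.6 to 79.4 ± 13.1 (SD, n = 4), or by -0.71 ± 0.16 in log2 terms (SE; edgeR adjusted p = 0.0219). It was not called without high-fat replicate 2 (log2 fold change -0.71, edgeR adjusted p = 0.0564, with adjusted p from 4.22e-04 to 0.197 over its alternatives).

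Snord15a and Snord15b, the U15 RNAs, guide methylation of 28S ribosomal RNA and lie in Rps3, a gene for a protein of the small ribosomal subunit. Snord15b had 987, 796, 996 and 1201 counts on the control diet and 929, 759, 676 and 781 on the high-fat diet. The groups overlapped, and the log2 fold change was -0.40 ± 0.13 (SE; edgeR adjusted p = 0.0943). Snord15a had 213, 196, 285 and 309 counts against 271, 234, 176 and 165, also with overlap (-0.31 ± 0.19, edgeR adjusted p = 0.355). The U15 copies were identical in 66.0% of aligned positions and shared no run of 50 bases. Within the Snord sum, the share of Snord15b was 16.0% ± 2.13 on the control diet and 19.2% ± 0.877 on the high-fat diet (SD, n = 4). Every high-fat library lay above every control library in this share. The share of Snord22 was 16.3% ± 0.905 and 13.7% ± 1.61, with overlap (15.1% to 17.2% and 11.7% to 15.6%). Shares of a sum depend on each other, so a share can rise while the CPM of that member does not.

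The remaining tested members did not pass. Snord104, which guides methylation of 28S ribosomal RNA, had 162, 97, 125 and 195 counts on the control diet and 143, 90, 74 and 90 on the high-fat diet (log2 fold change -0.61 ± 0.27, edgeR adjusted p = 0.187). Snord49b, from the non-coding host 2410006H16Rik, had 13, 28, 43 and 32 counts against 18, 19, 9 and 9 (-1.12 ± 0.38, edgeR adjusted p = 0.102). It passed only without control replicate 1, its lowest control library (log2 fold change -1.34, edgeR adjusted p = 0.0487, with adjusted p up to 0.236 over its alternatives). Snord89 and Snord16a, the latter from the ribosomal protein gene Rpl4, had estimates of -0.68 ± 0.45 and -0.95 ± 0.46 (edgeR adjusted p = 0.395 and 0.239). Snord99, from Snhg12, was the only tested member with an estimate above 0 (0.32 ± 0.57, edgeR adjusted p = 0.769). Its control libraries had 5, 10, 6 and 33 counts and its high-fat libraries 24, 17, 21 and 9, and without control replicate 4 the estimate was 1.26.

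The 49 detected members that were not tested summed to 3.34, 2.89, 3.22 and 3.69 CPM in control replicates 1 to 4 and 3.60, 2.94, 2.199 and 1.85 CPM in high-fat replicates 1 to 4. These sums overlapped between the diets, unlike the sum of the 13 tested members, which ran from 192 to 272 CPM and from 110 to 169 CPM. By group means 36 of the 49 were lower and 13 higher on the high-fat diet, with 359 counts in all control and 303 in all high-fat libraries. Of the 49, 27 had a mean under 1 count, where 1 read can set the direction. The share of lower means among other rows with few counts is not given. Without the low-count filter, where all 62 detected members were tested, none of the 49 was called. The 4 members from Rpl13a (Snord32a, Snord33, Snord34 and Snord35a) had 81 counts in all control libraries and 51 in all high-fat libraries, and the 4 rows from Gas5 (Snord47, Snord78 and both Snord80 rows) had 19 and 24. Snord12 from Zfas1 had 4, 2, 0 and 3 counts on the control diet and 2, 0, 4 and 3 on the high-fat diet.

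Because most members are cut from host introns, member and host were set side by side in the same fit. Snhg1 fell with Snord22: its level was 47.3 ± 7.07 CPM on the control diet and 28.2 ± 4.89 CPM on the high-fat diet (SD, n = 4; log2 fold change -0.75 ± 0.14, edgeR adjusted p = 0.0111). The log2 ratio of Snord22 to Snhg1 counts was -0.34 ± 0.0849 and -0.52 ± 0.139 (SD, n = 4), and the groups overlapped. Snord22 is inside an exon of some Snhg1 transcript, so reads may have been counted for both.

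Snx5, the host of Snord17, was not lower on the high-fat diet. Its libraries had 59.6, 64.0, 64.4 and 60.5 CPM on the control diet and 67.8, 70.3, 70.9 and 67.5 CPM on the high-fat diet, all high-fat libraries above all controls, as in 7.28% of tested genes (log2 fold change 0.15 ± 0.052, edgeR adjusted p = 0.0977; called higher with library totals alone at 0.0253 and by DESeq2 at adjusted p = 0.0442). The log2 ratio of Snord17 to Snx5 counts was 1.04 ± 0.322 on the control diet and 0.18 ± 0.289 on the high-fat diet (SD, n = 4). Every high-fat library lay below every control library in this ratio. With Snord17 lower and Snx5 higher in every high-fat library, that separation was fixed in advance. Snord17 is intronic in every annotated Snx5 transcript.

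Rps3, the host of both U15 RNAs, fell by 0.28 ± 0.058 on the log2 scale (SE; 254 ± 6.35 to 209 ± 7.37 CPM, edgeR adjusted p = 0.0172), though its estimate was 0.19 when scaled to the summed snoRNA counts. The log2 ratio of Snord15b to Rps3 was -2.82 ± 0.221 and -2.93 ± 0.161, and that of Snord15a -4.81 ± 0.266 and -4.85 ± 0.323, each with overlap. Snord15b is inside an exon of some Rps3 transcript, so reads may have been counted for both, while Snord15a is intronic in every annotated Rps3 transcript. Rps3 was not called with library totals alone (edgeR adjusted p = 0.0541), nor without high-fat replicate 2 or 3 (0.0598 and 0.0530), nor without control replicates 1 and 4 together (0.0825). Hspa8, host of the U14 copies, had 950 ± 173 and 1140 ± 219 CPM (0.26 ± 0.16, edgeR adjusted p = 0.352). Rpl13a fell (log2 fold change -0.44 ± 0.071, edgeR adjusted p = 0.00692; 0.029 when scaled to the summed snoRNA counts), while Gas5 (-0.033 ± 0.077), Zfas1 (0.033 ± 0.13) and Snhg12 (-0.41 ± 0.13) were not called (edgeR adjusted p = 0.826, 0.903 and 0.0907).

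For Snord118, which has no containing gene, the neighbour Tmem107 served as a reference. Tmem107 had 18, 19, 14 and 20 counts on the control diet and 14, 28, 11 and 15 on the high-fat diet (log2 fold change -0.13 ± 0.33, edgeR adjusted p = 0.850). The ratio of Snord118 to Tmem107 counts was 2.28, 2.05, 1.5 and 1.30 in control replicates 1 to 4 and 0.429, 0.286, 0.364 and 0.400 in high-fat replicates 1 to 4. No library of either group reached the range of the other. Snord118 had 21 or more counts in every control library and 8 or fewer in every high-fat library. With Tmem107 at 11 to 28 counts, no pairing of these values could overlap. That separation was thus fixed in advance by the Snord118 counts and adds nothing to them.

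**Figure D3:**
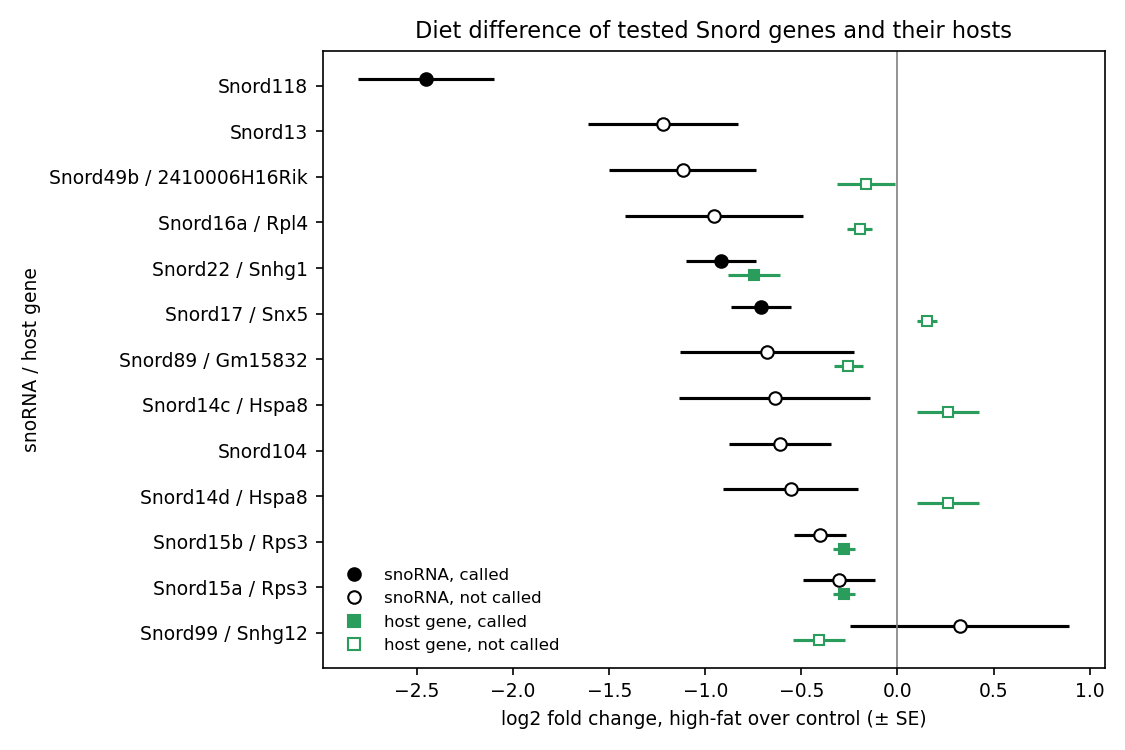
Log2 fold change of high-fat over control diet with its SE (horizontal) for the 13 tested Snord members (circles) and for the host gene of each where it has one (squares); filled symbols are called at an edgeR adjusted p of 0.05. Snord22 and Snhg1 lie at -0.92 and -0.75, while Snord17 lies at -0.71 and Snx5 at 0.15.

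**Figure D4:**
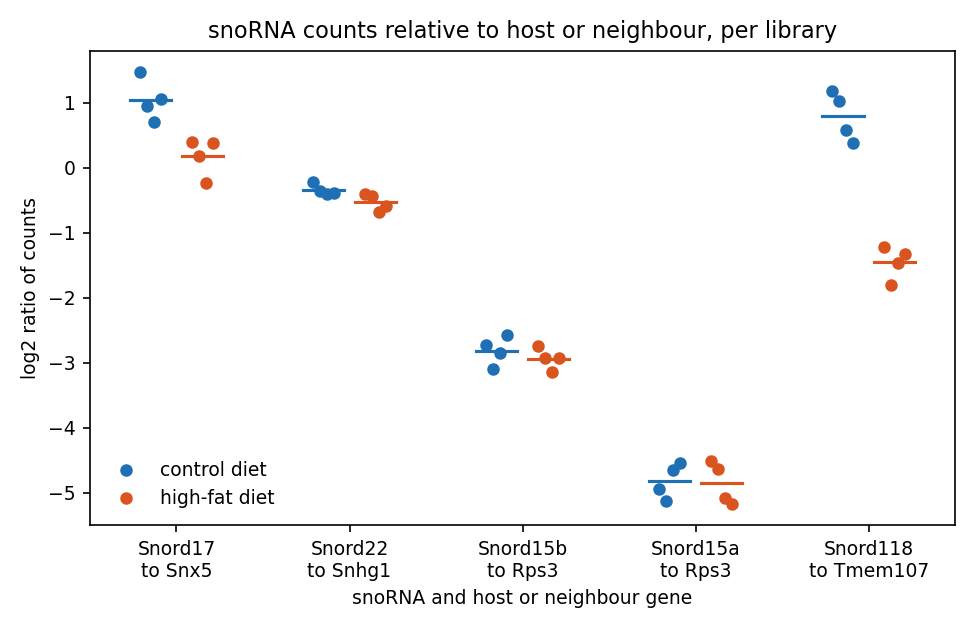
Log2 ratio of the counts of a snoRNA to those of its host, or of its neighbour for Snord118 (vertical), in each library (points, blue control and orange high-fat), with group means as bars. The groups are apart for Snord17 to Snx5 and for Snord118 to Tmem107 and overlap for the other 3 pairs. For Snord17 to Snx5 this follows from the separate levels of the RNA and its host. For Snord118 to Tmem107 it follows from the Snord118 counts alone, given the range of the Tmem107 counts. To the counts of the host pairs 0.5 was added.

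Genes of the box C/D machinery did not pass the test in either direction. Of the core proteins Fbl (fibrillarin), Nop56, Nop58 and Nhp2l1 (the mouse name in the table for the core protein Snu13), 0 of 4 were called, with log2 fold changes from -0.25 to -0.065. Of 9 assembly factors 0 were called (-0.20 to 0.31), of 12 genes for snoRNA maturation and turnover 0 (-0.20 to 0.15), and of 14 proteins of the U3 processome 0 (-0.17 to 0.20). These lists had medians of -0.15, -0.056, 0.0053 and -0.00071, beside 0.0069 over all tested genes. With edgeR, 4 of these 39 genes had an unadjusted p under 0.05, a limit at which the share of all tested genes is not given. DESeq2 called 0 of the 39.

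Lower levels were also found in other snoRNA rows and, with smaller medians, in other short RNA rows, beside 5.86% called lower over all tested genes. Of 31 tested Snora rows, the H/ACA class that guides pseudouridylation, 9 (29.0%) were called lower and 0 higher, with a median log2 fold change of -0.73. Of the 55 other tested snoRNA rows, whose class the names do not give, 13 (23.6%) were called lower and 0 higher (median -0.58). Outside the snoRNA type, 8 of 46 tested rows under 250 bases (17.4%) were called lower and 0 higher (median -0.22). Among these other types, 5 of 25 miRNA rows were called lower and 0 higher (median -0.33), and 1 of 3 scaRNA rows (median -0.50). Of 26 rows of type misc_RNA, 1 (3.85%) was called lower and 0 higher (median -0.25). The U3 rows had estimates of -0.48 ± 0.22 each (SE; edgeR adjusted p = 0.220 and 0.219). Snord118 had a lower estimate than every one of the 86 tested snoRNA rows outside Snord, the lowest of which was -1.52. It was not the lowest of all short RNA rows, since the misc_RNA row Rn7s2 stood at -5.45. Rn7sk, an abundant nuclear RNA outside the snoRNA class, stood at 8217 ± 724 CPM in control livers and 7752 ± 268 CPM in high-fat livers (SD, n = 4), and the summed snRNA rows at 6.21 ± 1.32 and 4.64 ± 0.999 CPM. The summed snoRNA share of the library, 0.142% to 0.199% of counts in control libraries and 0.112% to 0.142% in high-fat libraries, moved with the diet alongside the Snord members, and the part of RNA extraction or library preparation in this was not tested.

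**Figure D5:**
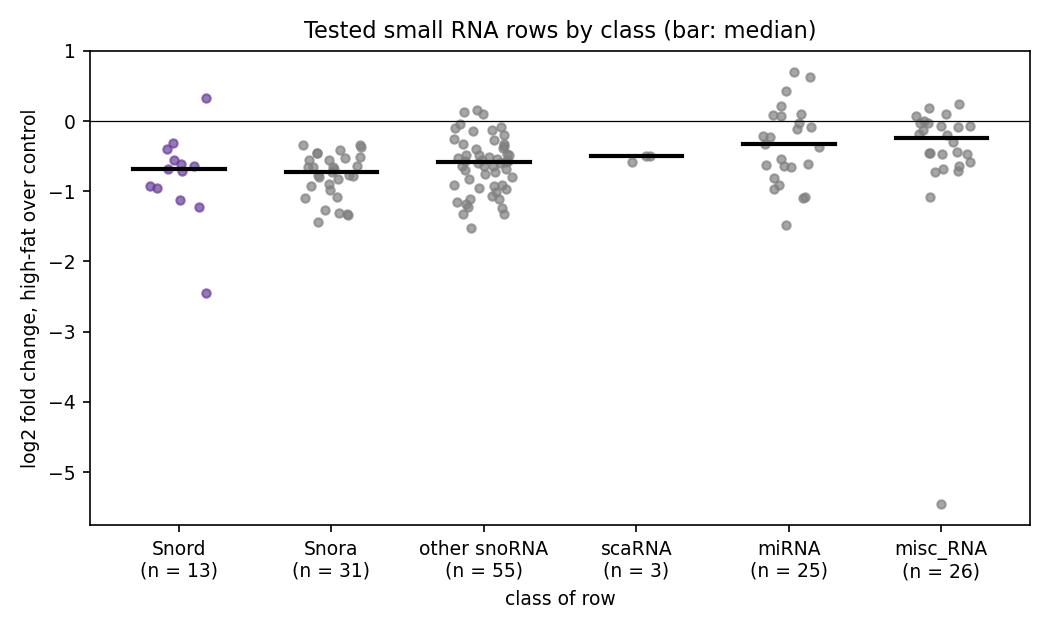
Log2 fold change of high-fat over control diet (vertical) of tested small RNA rows by class; each point is a row and each bar a class median. The Snord, Snora and other snoRNA medians lie at -0.68, -0.73 and -0.58, and Snord118 at -2.45 is the lowest snoRNA point.

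To set the members against snoRNAs as a whole, the same fit was made with the summed counts of all snoRNA rows as library size. That sum includes the members themselves and both overlapping U3 rows, so a member is partly compared with itself. The choice was made after seeing the data, and under it the typical tested gene (the median) shifted to 0.48 in log2 terms. Relative to the summed snoRNA counts Snord118 was lower, at -1.98 ± 0.39 on the log2 scale (SE, edgeR adjusted p = 0.00219). Snord22 had an estimate of -0.45 ± 0.16 (SE, edgeR adjusted p = 0.0324). In that fit 6172 genes were called higher, which makes the adjusted p a looser limit than in the main fit. A pass at that limit, as for Snord22, does not by itself set a member apart from other snoRNAs. Snord17 did not pass (-0.23 ± 0.15, edgeR adjusted p = 0.197), and the estimates of Snord15a and Snord15b were then above 0 (0.15 and 0.073). Within the Snord sum the share of Snord118 was 0.511% ± 0.160 on the control diet (0.368% to 0.706%) and 0.146% ± 0.0350 on the high-fat diet (0.120% to 0.195%; SD, n = 4), with no overlap.

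Control replicates 1 and 4 had the highest Snord sums. They also held 42 and 32 counts of the adipocyte transcript Adipoq, against 10 or fewer in every other library. The part of this in the snoRNA levels was not tested. The sum of the 6 adipocyte markers did not set these libraries apart. It was 2799 and 4561 CPM in control replicates 1 and 4, and 2722 and 4106 CPM in control replicates 2 and 3. High-fat libraries had 3367 to 3968 CPM. Without control replicates 1 and 4, an alternative chosen after seeing the data, 1 Snord member was called in place of 3. Leaving out the libraries with the highest Snord sums lowers the control mean of that sum, and fewer control libraries remain. Over all genes the number called lower went from 825 to 461. The smaller number of Snord calls can therefore not be assigned to Adipoq. Snord118 passed (log2 fold change -2.33, edgeR adjusted p = 0.0242), while Snord22 (-0.68, edgeR adjusted p = 0.0950, range 7.01e-05 to 0.0950 over its alternatives) and Snord17 (-0.52, edgeR adjusted p = 0.0977) did not, nor did the hosts Snhg1 (-0.56, edgeR adjusted p = 0.0668) and Rps3 (-0.26, edgeR adjusted p = 0.0825). The 6 hepatocyte markers summed to between 62729 and 100640 CPM in control and between 56449 and 59674 CPM in high-fat libraries, without overlap. Most of that sum was Alb, at 58206 ± 16020 and 40226 ± 720 CPM (SD, n = 4). Tat and Serpina1c were called lower, while Cyp2e1 had an estimate of 0.38 ± 0.17 (SE; edgeR adjusted p = 0.213). Summed markers of Kupffer, endothelial, stellate, erythroid, lymphoid and bile duct cells and of neurons overlapped between the diets, and none of their tested members was called. The erythroid sum was mostly Alas2, and the 4 globin rows had estimates from 1.13 to 1.43 (edgeR adjusted p from 0.107 to 0.216). Among the 2 tested adipocyte markers Cfd was called higher, at 1.52 CPM on the control and 41.1 CPM on the high-fat diet. Car3, which made up most of the adipocyte sum, was not called (3544 and 3691 CPM). The part of cell composition in the snoRNA levels was not tested.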

How the data were processed

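Liver RNA from 8 mice was sequenced. The authors deposited raw read counts per gene, which were used unchanged. The submitters' processing notes name mm10 as the build, and TopHat2 2.1.1, Trimmomatic 0.32 and bcl2fastq 2.20.0.422 as tools. How reads were counted (tool, strand, multiply mapped reads, gene models) is not given in the sources used here. Selection of RNA by size, or trimming and alignment of short fragments, could bear on counts of RNAs this short.

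Counts were filtered with filterByExpr, scaled by TMM and tested with edgeR 4.0.16 (quasi-likelihood, R 4.3.3) over 14088 genes, with Benjamini-Hochberg adjusted p under 0.05 as the call. CPM uses TMM-scaled library sizes. The fitting code was tested on simulated data. Host genes were assigned by position: the smallest same-strand gene containing the member. DESeq2 1.42.0 and limma 3.58.1 (limma-voom) served among 17 alternatives. Replicates of a group differed by more than sampling noise in every pair. Groups came from the source labels, and replicate numbers follow accession order. The genes named are the 13 tested members, their hosts and neighbour, and the listed machinery and markers. The members and gene lists were chosen with earlier results of these data known. The upper limit given for a count of 0 covers counting error only; SDs and SEs include the spread between mice. The sequence and position of Snord13 are not reported here.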

Additional observations from a re-analysis of the deposited data

Results flagged for a closer look

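In the high-fat group, replicate 1 stood apart from the others for Snord14c, with 0.796 CPM against 0.213, 0.169 and 0.218 CPM in replicates 2 to 4. The gap to the nearest library was 0.922 of the group's range, above Dixon's 95% critical value for 4 samples. In the control group, replicate 3 stood apart for Tmem107, the neighbour of Snord118, with 0.480 CPM against 0.699, 0.703 and 0.731 CPM, a gap of 0.871 of the range. Chance flags about 1 in 20 groups, and both values rest on 5 to 23 counts per library. The screen covered both diet groups of all 13 tested members, of the host, neighbour and U3 rows and of the Snord sums. Across that many groups, chance alone could give this number of flags.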

How the results depend on the processing

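The count of Snord members called lower was 3, and it ran from 2 to 4 with 1 library left out, with none called higher in any alternative. It was 1 without control replicates 1 and 4, the 2 control libraries with Adipoq counts and with the highest Snord sums. The median log2 fold change ran from -1.10 to -0.55 with 1 library left out. Over all genes, 529 were called higher and 825 lower. These counts were 1111 and 534 with library totals alone (median of all genes 0.10), 282 and 461 without the 2 control libraries, and 6172 and 170 when scaled to the summed snoRNA counts (median 0.48). DESeq2 called 860 higher and 1193 lower. With 1 library left out they ran from 293 to 636 and from 432 to 843. Well measured members numbered 13 at a minimum mean of 10 counts and 5 at 50. Among single genes, 411 estimates kept direction and side of the threshold, 11 newly passed, 10 no longer passed and 19 changed sign; except where stated above, the cause was not tested. Scaling to the summed snoRNA counts turned Snord15b (0.073), Snord15a (0.15), Rps3 (0.19), Gm15832 (0.22), 2410006H16Rik (0.31), Snhg12 (0.062), Rpl4 (0.27), Rpl13a (0.029), Gas5 (0.45), Tmem107 (0.35) and the U3 rows Rnu3a (0.046 and 0.045). Gas5 turned with library totals alone (0.063), without control replicate 4 (0.013) and without high-fat replicate 1 (0.011), with a range from -0.069 to 0.013 over single libraries left out. Zfas1 turned without control replicate 2 (-0.049) and without high-fat replicate 4 (-0.0100), ranging from -0.049 to 0.12. Tmem107 turned without high-fat replicate 3 (0.046), ranging from -0.48 to 0.046, and without the 2 control libraries (0.015). No paired analysis was possible because the labels carry no replicate numbers. Depth limits the 49 untested members, with means under 10 counts.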
